A study of Mus musculus with 2 samples.

Results

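The places described here are stretches of the mouse genome where MTF2 was high and JARID2 was not. They were 1 kb bins on chromosomes 1 to 19 with an MTF2 read count at least 5 times the expected count, a JARID2 count below 2 times, and fewer than 3 deposited MTF2 lines per kept read. The expected count of a chromosome is the mean over its bins with a read, up to the 99th percentile, and a fold is a bin's count divided by it. Of 2382450 bins with a read in either library, 450 met the rule. MTF2 was at 5-fold or more in 0.178% of all bins, JARID2 was below 2-fold in 2144447 of them, and the members were 0.0189%. Because both folds chose the members, they are given as description, without a test.

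Among the partners of PRC2 are the Polycomb-like protein MTF2 and the Jumonji-family protein JARID2, which has no known demethylase activity. PRC2 is the complex that methylates a lysine of histone H3 and keeps developmental genes silent in embryonic stem (ES) cells. MTF2 is known to bind unmethylated CpG-rich DNA, and both proteins help to bring PRC2 to its targets. The samples were ChIP-seq libraries, in which DNA pulled down with an antibody is sequenced, with 1 library against MTF2 and 1 against JARID2. Both came from ES cells of a 129SvJae x C57BL/6 background at passages 10 to 15, taken off feeder cells for 2 to 3 passages. The labels do not say whether the libraries came from 1 culture. With 1 library per factor and neither input nor control antibody to set against them, intervals cover counting error only and no difference between the libraries has a replicate check. After removal of repeat reads, chromosomes 1 to 19 held 8563684 MTF2 reads of 52 bp and 12512741 JARID2 reads of 36 bp. A bin was expected to hold a median of 3.39 MTF2 reads and 4.25 JARID2 reads over these chromosomes. Whether JARID2 counts were low in some bins because its shorter reads were not placed there was not tested.

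Most members stood only just above the MTF2 limit. They held 16 to 63 MTF2 reads, with a median of 20 and a median fold of 5.82 (95% interval 5.61 to 5.86). Of the 450, 254 lay at 5 to 6-fold, 46 reached 8-fold and 16 reached 10-fold, while another 1428 bins with JARID2 below 2-fold lay just under the limit at 4 to 5-fold. Positions are those of the deposited files, whose genome build is not stated in the labels. The members nearest to that limit, on chromosome 9 from 20090001 and 26259001, were at 5.01-fold with 17 reads. The nearest bins outside it, on chromosome 3 from 11352001 and 17603001, were at 4.999-fold with 18 reads, on a chromosome with a higher expected count. At the JARID2 limit the nearest members, on chromosome 3 from 25717001 and 67071001, had 7 JARID2 reads (1.996-fold). The nearest bins outside, on chromosome 7 from 39092001 and 39149001, had 9 (2.03-fold). The repeat-read limit removed no bin with JARID2 below 2-fold, and the highest value among members was 1.74 lines per kept read.

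The rule kept JARID2 below 2-fold, and within that range most members had some JARID2 reads. Members held a median of 5 JARID2 reads, or 1.14-fold (1.07 to 1.18), against 0.798-fold over all bins. No JARID2 read was found in 17 of 450 (3.78%, 2.22 to 5.98), against 5.66% of all bins. Under the same repeat-read limit the other MTF2 bins of 5-fold or more formed 2 classes, called intermediate (JARID2 at 2 to 5-fold, 738 bins) and shared (JARID2 at 5-fold or more, 2984 bins). Members were the smallest of the 3 classes. Their median MTF2 fold was also the lowest, against 6.56 (6.42 to 6.71) in intermediate and 7.42 (7.27 to 7.56) in shared bins. The number of members follows the limits chosen: it was 46 at 8-fold MTF2, 1878 at 4-fold, 186 with JARID2 below 1-fold and 917 without MTF2 reads of deposited score 0.

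Members fell into 2 kinds by the MTF2 level around them, which the rule did not use. The surroundings of a bin were the bins 2 to 10 kb away on both sides. They are called raised where their median MTF2 fold was 2 or more and flat where it was lower, a limit set after the data were seen. Raised surroundings were found at 243 of 450 members (54.0%, 49.3 to 58.7), against 0.482% of all bins. Members near each other share surrounding bins, so this interval, which treats bins as independent, is too narrow. At a limit of 1.5-fold this share of members was 58.9%, and at 3-fold 39.3%. It depended more on the rule for members, with 28.3% for MTF2 at 4-fold or more, 86.96% at 8-fold or more, 31.2% for JARID2 below 1-fold, 34.4% where neighbouring bins were also below 2-fold JARID2 and 32.8% without MTF2 reads of score 0. Raised surroundings were more frequent in intermediate bins (87.1%, 84.5 to 89.5) and about as frequent in shared bins (57.6%, 55.8 to 59.4). The other 207 members had flat surroundings and are called solitary. The name refers to the surroundings alone, since 8 of them had another flat member within 10 kb.

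**Figure D1:**
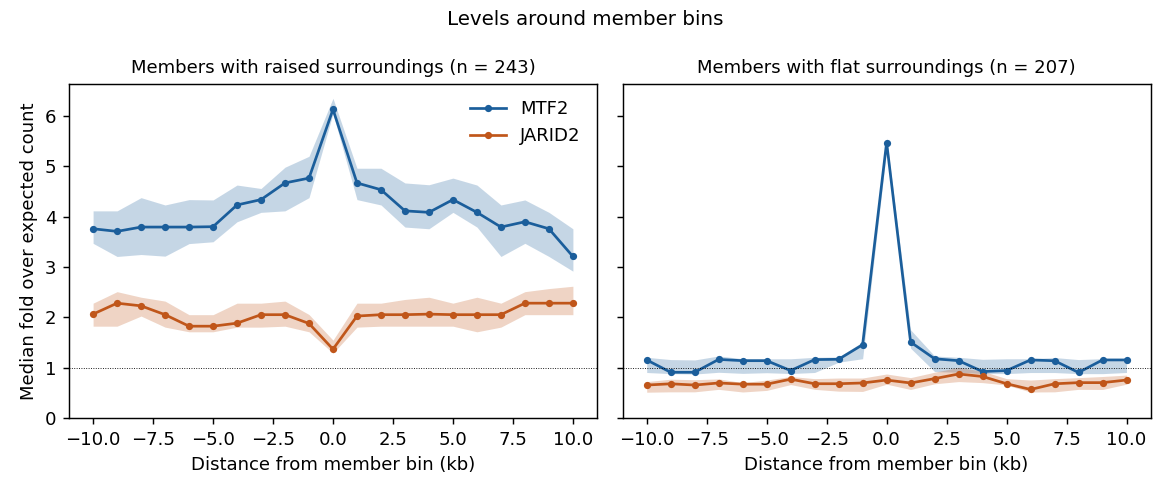
Median fold over the expected count (vertical axis) of MTF2 and JARID2 in 1 kb bins up to 10 kb from a member bin (horizontal axis), for 243 members with raised and 207 with flat surroundings; bands are 95% order-statistic intervals of the median and the dotted line is 1-fold. MTF2 stands on a plateau between 3.21 and 4.76-fold in the first kind and falls from 5.47-fold to 1.46 and 1.51-fold in the adjacent bins in the second. The MTF2 level 2 to 10 kb away defined the 2 kinds, so its difference between them there is set by the split. The JARID2 dip at distance 0 on the left is set by the rule.

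Around the first kind both libraries were above their expected counts. The MTF2 level 2 to 10 kb away defined the 2 kinds, so there it differs between them by construction and is given as description. The bin next to a member had a median MTF2 fold of 4.76 (4.37 to 5.19) on the lower-coordinate side and 4.67 (4.34 to 4.96) on the higher, and MTF2 was still at 3.76 and 3.21-fold 10 kb away. JARID2 was at 1.88 and 2.03-fold in the adjacent bins, and the median over the surroundings was 2.28-fold (2.05 to 2.40). The members themselves had a median of 1.37-fold JARID2, lower than their neighbours because the rule kept only bins below 2-fold. These members were therefore low-JARID2 bins of wider stretches that, on the median, were raised in both libraries. Without an input, a stretch bound by both proteins and a stretch that gives more reads in any library, such as one present in extra copies, cannot be told apart. Around the second kind neither library was raised: the surroundings had a median of 1.03-fold MTF2 and 0.684-fold JARID2 (0.631 to 0.757), and the member bin itself 0.757-fold JARID2.

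The 2 kinds were spread differently over the genome. Of the 243 members with raised surroundings, 208 (85.6%) lay on chromosomes 4, 7, 8 and 13, and the rest on 9 other chromosomes. These chromosomes were named because they held the most members, so their share is high by selection. In the same order they had 150743, 140308, 124963 and 116056 of the 2382450 bins. The 5 largest groups of members, described below, all lay on them and held 170 members, so the share largely reflects a few places. Members with flat surroundings were found on 18 chromosomes, from 2 on chromosome 19 to 19 on chromosome 7, with none on chromosome 8. Chromosome 8 had the highest expected MTF2 count of the chromosomes, at 4.62 reads, and a member there needed 24 reads, against 16 to 19 elsewhere. Chromosome 4 held 111 members, or 0.736 per 1000 bins, and chromosomes 18 and 19 the fewest, with 0.0344 and 0.0345 per 1000 bins.

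**Figure D2:**
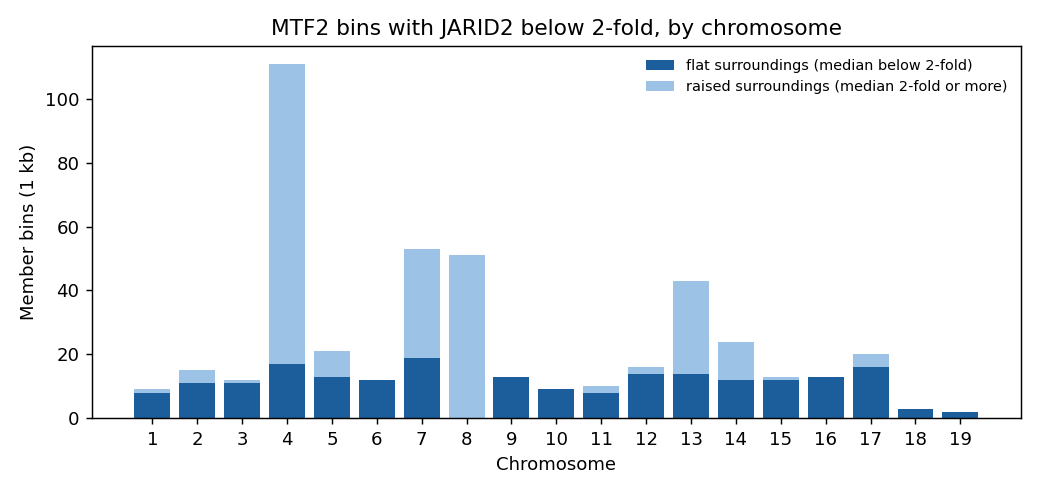
Number of member bins of 1 kb (vertical axis) on each chromosome (horizontal axis), split by the MTF2 level 2 to 10 kb around them. Chromosomes 4, 7, 8 and 13 hold 111, 53, 51 and 43 members, most of them with raised surroundings, and members with flat surroundings number 0 to 19 per chromosome.

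Some members gathered in a few groups and others stood alone. Another member lay within 10 kb of 179 of the 450 (39.8%, 35.2 to 44.5). That share was 70.4% (64.2 to 76.04) among members with raised surroundings, counted against others of their kind, and 3.86% (1.68 to 7.47) among those with flat surroundings. A member 2 to 10 kb away also adds to the MTF2 level that made the split, so these 2 shares are tied to it. Joining members no more than 100 kb apart gave 238 groups, of which 209 were single members, 22 had 2 to 4 and 7 had 5 or more, with 186 members together. The 5 largest groups held 170 members (37.8%, 33.3 to 42.4). Joining at 1 kb gave 378 regions, 343 of them of 1 bin. Shared bins had another of their class within 10 kb in 85.1% (83.7 to 86.3) and intermediate bins in 77.5% (74.3 to 80.5). These classes hold more bins, and no correction was made for that. The longest region had 21 members in 27 kb, on chromosome 7 from 64345001 to 64372000. The next were 6 kb long, on chromosome 8 from 19768001 and on chromosome 13 from 12792001 and 12841001 with 5 members each, and on chromosome 4 from 144716001 with 4.

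The groups with most members lay on chromosome 4. From 144695001 to 145716000 (1021 kb) there were 48 members, and from 145859001 to 146649000 (790 kb) another 47. Mean MTF2 over the bins with a read was 3.47-fold (3.41 to 3.54) in the first and 3.74-fold (3.67 to 3.81) in the second. Mean JARID2 was 2.86-fold (2.81 to 2.91) and 2.82-fold (2.77 to 2.88). The first group held 164 bins at 5-fold MTF2 or more, of which 98 were intermediate and 18 shared. The second held 187 such bins, with 113 intermediate and 27 shared. In both groups members were thus the smaller share of the MTF2-rich bins.

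Among the 7 groups of 5 or more members, those on chromosome 8 had the highest mean MTF2 fold. From 19716001 to 20026000 there were 26 members in 310 kb, with mean MTF2 at 6.33-fold (6.18 to 6.47) and JARID2 at 4.42-fold (4.32 to 4.53). From 20328001 to 20455000 there were 11 members in 127 kb, with MTF2 at 8.64-fold (8.40 to 8.88) and JARID2 at 6.74-fold (6.55 to 6.93). Of the 109 MTF2 bins of 5-fold or more in the latter, 59 were shared. By the median over bins the first group was at 5.41-fold MTF2, below a block on chromosome 7 from 64345001 at 6.04-fold. Both libraries were high over the chromosome 8 groups, and members lay among shared and intermediate bins. Just outside these groups the medians were also high, at 4.87 and 7.58-fold MTF2 and 4.03 and 5.48-fold JARID2 in the same order. Bins without a read interrupted some groups: 260 of 310 bins had a read in the first chromosome 8 group, and 923 of 1021 in the first chromosome 4 group.

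On chromosomes 7 and 13 the groups had less JARID2. From 12783001 to 12986000 on chromosome 13 there were 27 members in 203 kb, with MTF2 at 4.03-fold (3.86 to 4.20) and JARID2 at 1.73-fold (1.62 to 1.84). None of its 43 MTF2 bins of 5-fold or more was shared, and 153 of its 203 bins had a read. From 7423001 to 7504000 on chromosome 7 there were 5 members in 81 kb, with MTF2 at 2.62-fold (2.43 to 2.82) and JARID2 at 0.934-fold (0.837 to 1.04).

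Among those 7 groups the one with most members per kb was a block of 30 kb on chromosome 7, from 64345001 to 64375000, where 22 of 30 bins were members. With JARID2 below 1-fold 13 of them were members, and with MTF2 at 8-fold or more 4. MTF2 was 6.09-fold over the block (5.62 to 6.60, 605 reads) and JARID2 0.945-fold (0.788 to 1.13, 126 reads). Single bins ran from 2.72 to 10.9-fold in MTF2, with a median of 6.04, and from 0 to 2.03-fold in JARID2, with a median of 0.900. The 30 kb before it had 0.987-fold MTF2 (0.801 to 1.20) and 0.870-fold JARID2 (0.719 to 1.04), so MTF2 changed across the edge while JARID2 did not differ beyond counting error. The edges were sharp. MTF2 reads per bin went from 1 in the bin from 64343001 to 10 and then 18 in the bins from 64344001 and 64345001, and from 18 in the bin from 64374001 to 6 and 4 in the next ones. JARID2 had a peak of its own outside the block, with 172 and 192 reads in the bins from 64380001 and 64381001 (38.7 and 43.2-fold), where MTF2 had 2 and 4 reads (0.604 and 1.21-fold). Here the MTF2 block and the JARID2 peak lay side by side and did not overlap. There was no input to set against the MTF2 reads, so what raised them over the block was not tested. The block's highest bin, from 64354001 to 64355000, had 36 MTF2 reads (10.9-fold, 7.62 to 15.1), with 18 on each strand, and 8 JARID2 reads (1.80-fold).

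**Figure D3:**
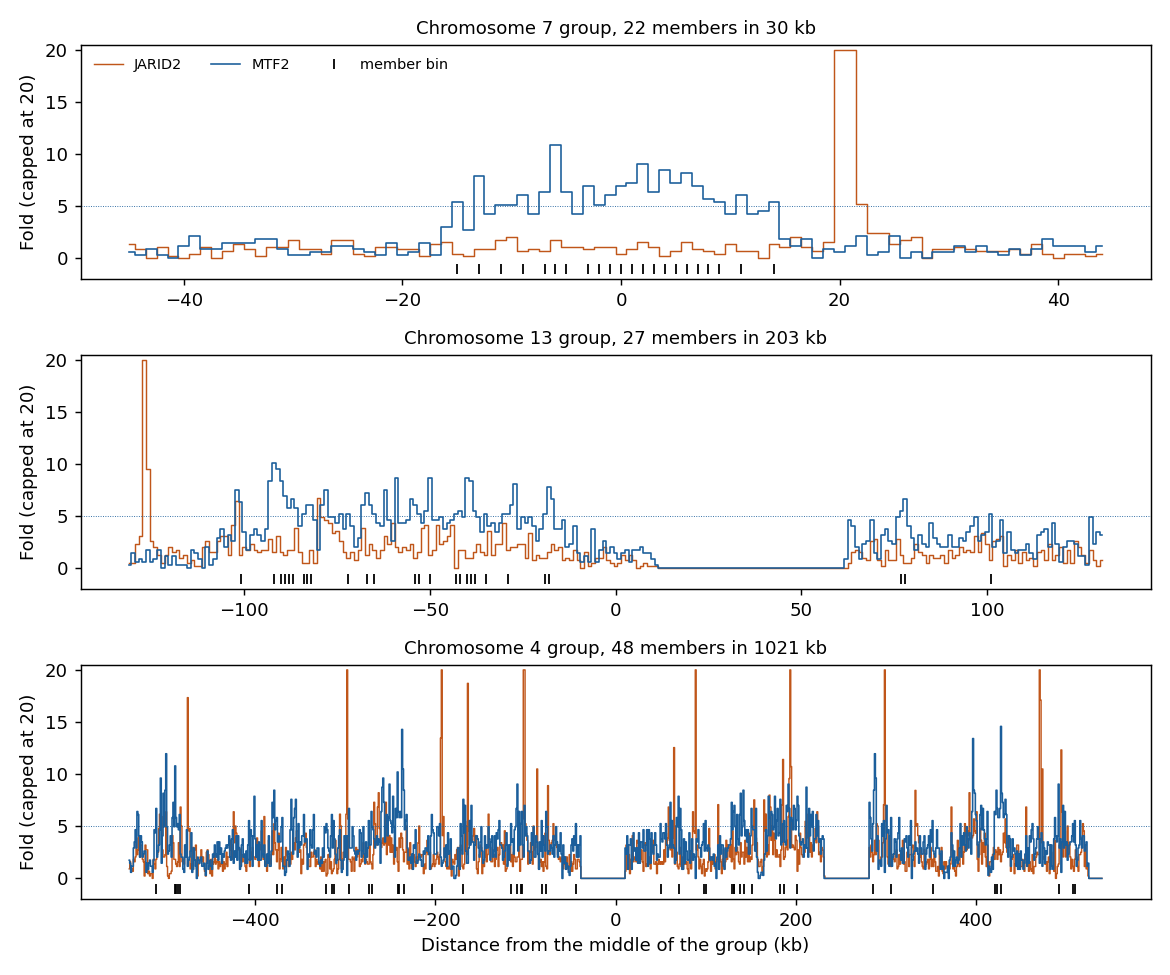
Fold of MTF2 and JARID2 per 1 kb bin (vertical axis, capped at 20-fold) across 3 groups of members, against distance from the middle of the group (horizontal axis, kb); ticks under the lines are member bins and the dotted line is 5-fold. The chromosome 7 block has MTF2 near 6-fold and JARID2 near 1-fold with a JARID2 peak outside it, while the chromosome 4 group has both libraries raised and JARID2 peaks among the members; runs at 0 in both libraries are bins with no read.

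Among members in flat surroundings the highest was a site on chromosome 1. The bin from 135422001 to 135423000 held 63 MTF2 reads (17.96-fold, 13.8 to 23.0), 33 on the plus and 30 on the minus strand, and 8 JARID2 reads (1.88-fold). The next bin was a member too, with 36 MTF2 reads (10.3-fold) and 7 JARID2 reads (1.65-fold). In 200 bp steps the MTF2 reads ran over both bins, with 13, 12, 14, 9, 15, 5, 10 and 17 reads from 135422001 to 135423600. There were 3 and 1 after that, and 0 in the step before. The reads thus filled 8 steps with clear edges and came from both strands, but unevenly along the site. In the steps from 135422001 and 135422201, 10 and 9 reads were on the minus strand, against 3 each on the plus strand. In those from 135422401, 135422601 and 135422801, 11, 7 and 9 were on the plus strand, against 3, 2 and 6. The surroundings were at 0.855-fold MTF2 and 0.941-fold JARID2.

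The next 5 solitary members by fold, at most 1 per 100 kb, differed in width and strand balance. The bin from 60452001 to 60453000 on chromosome 13 had 37 MTF2 reads (10.7-fold, 7.53 to 14.7) and 6 JARID2 reads (1.55-fold). Its reads filled the first steps, with 14, 12, 4 and 7, and came from both strands, with 21 plus-strand and 16 minus-strand reads. The bin from 94722001 to 94723000 on chromosome 7 had 30 MTF2 reads (9.06-fold, 6.11 to 12.9) and 2 JARID2 reads (0.450-fold). Of these 30, 26 fell in a single step of 200 bp and 25 of those 26 were on the plus strand. The bin from 48498001 to 48499000 on chromosome 15, with 27 MTF2 reads (8.20-fold, 5.40 to 11.9) and 7 JARID2 reads (1.70-fold), had 22 in a single step, all on the minus strand. The bin on chromosome 9 from 10666001, described with the bins without a JARID2 read, had 8.25-fold MTF2. That from 68332001 to 68333000 on chromosome 6 had 28 MTF2 reads (7.99-fold), balanced over the strands with 13 plus and 15 minus, and 6 JARID2 reads (1.56-fold).

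Of the 10 highest folds, at most 1 per 100 kb, only the sites on chromosome 1 and chromosome 13 from 60452001 had flat surroundings. The other 8 lay in raised surroundings. They were on chromosome 4 from 145633001 (14.6-fold MTF2, 10.8 to 19.2, and 1.597-fold JARID2) and from 144716001 (10.8 and 1.83-fold), on chromosome 7 in the block above, and on chromosome 14 from 3533001 (10.8 and 1.88-fold). Another 4 were on chromosome 8, from 19876001 (11.7 and 1.03-fold), 20452001 (11.47 and 1.71-fold), 20207001 (11.3 and 1.71-fold) and 19769001 (11.04 and 1.54-fold). Of the 16 members at 10-fold or more, 3 had flat surroundings. Flat surroundings were more usual near the limit, with 149 of the 254 members at 5 to 6-fold.

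The members with the most MTF2 reads and no JARID2 read were solitary. The bin from 10666001 to 10667000 on chromosome 9 had 28 MTF2 reads (8.25-fold, 5.48 to 11.9), with 23 on the plus strand and 5 on the minus. The bin from 87398001 to 87399000 on chromosome 16 had 24 (7.08-fold, 4.54 to 10.5), and that from 44659001 to 44660000 on chromosome 3 had 22 (6.11-fold, 3.83 to 9.25). A count of 0 allows up to 3 JARID2 reads (0.699, 0.828 and 0.855-fold in the same order), and the exact upper limits were 0.860, 1.02 and 1.05-fold, so JARID2 at its expected count lies within the limits of the bins on chromosomes 16 and 3. No JARID2 read was found in 16 of the 207 members with flat surroundings (7.73%, 4.48 to 12.3) and in 1 of the 243 with raised surroundings.

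The strands were balanced over members as a whole and uneven in some solitary ones. Of the 10007 MTF2 reads in members, 50.7% (49.8 to 51.7) were on the plus strand. The share of a single member ran from 0 to 95%. Reads lay at most 90% on 1 strand in 441 of 450 members (98.0%, 96.2 to 99.1), and all 9 others had flat surroundings. With a limit of 75% the share was 96.7% (93.6 to 98.6) in raised surroundings and 80.2% (74.1 to 85.4) in flat ones. It was 98.3% (97.7 to 98.7) in shared bins, which held a median of 26 MTF2 reads against 19 in solitary members.

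In some solitary members the reads were packed into short stretches. Reads that cover exactly the same 52 bp on opposite strands have 5' ends 51 bp apart, whereas the ends of a longer fragment lie farther apart. In members with flat surroundings, 12.3% of opposite-strand pairs within 400 bp lay 40 to 59 bp apart, 3.52 times the density at 300 to 379 bp. In members with raised surroundings the share was 5.53% (1.31 times that density), and in shared bins 6.43% (1.66 times). The most frequent 10 bp step of distance was that from 50 bp in solitary members, intermediate bins and shared bins alike. What set solitary members apart was the height of this peak, not its place. A read enters several pairs, so these shares have no interval. At 130 to 169 bp the densities relative to 300 to 379 bp were closer together, at 1.33, 1.37 and 1.497 in the same order. At least 50% of the reads lay in a single 200 bp step in 80 of 207 members with flat surroundings (38.6%, 32.0 to 45.6), against 8 of 243 with raised ones (3.29%, 1.43 to 6.38). With the MTF2 fold held at 5 to 6, this share was 34.2% (26.7 to 42.4) in flat members and 17.99% (14.4 to 22.02) in shared bins with flat surroundings. What gives these short stacks was not tested.

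**Figure D4:**
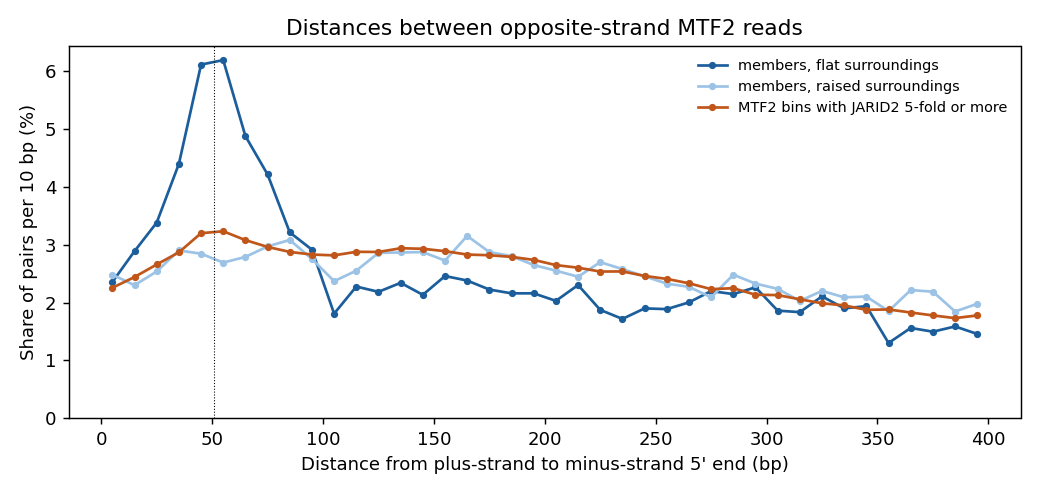
Share of pairs of opposite-strand MTF2 reads per 10 bp (vertical axis, percent) against the distance from the plus-strand to the minus-strand 5' end (horizontal axis, bp), for 3 classes of bins; the dotted line marks 51 bp, the distance of reads covering the same 52 bp. Members with flat surroundings have a peak near that line, with 12.3% of their pairs at 40 to 59 bp, against 5.53% in members with raised surroundings and 6.43% in shared bins (JARID2 at 5-fold or more). Shared bins have a lower peak at the same place.

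Reads from the strand not used for the choice measured how much of an MTF2 fold returns in other reads of the same library. Bins were chosen on plus-strand MTF2 reads alone, at 5-fold or more with JARID2 below 2-fold, which gave 1752 bins, most of them not members. Their median minus-strand fold was 1.83 (1.79 to 2.22), and 48.1% (45.7 to 50.4) had 2-fold or more, against 11.3% of all bins with JARID2 below 2-fold. The median was 5.22 with the limit at 8-fold and 1.04 without MTF2 reads of score 0. In raised surroundings the median was 4.67-fold (4.42 to 5.20) over 314 bins and 141 of them (44.9%) again had 5-fold or more. All bins with JARID2 below 2-fold and raised surroundings had a median of 1.85-fold, and 7.26% of them had 5-fold or more. In flat surroundings it was 1.75-fold (1.74 to 1.77) over 1438 bins and 61 (4.24%, 3.26 to 5.42) had 5-fold or more, against 0.0678% of all bins with JARID2 below 2-fold and flat surroundings. Chosen the same way, 3121 bins with JARID2 at 5-fold or more had a median of 6.93-fold (6.71 to 6.99). The choice by minus-strand reads gave 4.63 and 1.75-fold on the plus strand in raised and flat surroundings. So most of the fold returned on the other strand in raised surroundings, and less of it in flat ones. Surroundings were split on MTF2 reads of both strands, so part of this contrast may follow from the split. Over all bins with JARID2 below 2-fold the minus-strand median was 1.85 in raised and 1.11 in flat surroundings. These reads come from the same library and are no replicate.

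**Figure D5:**
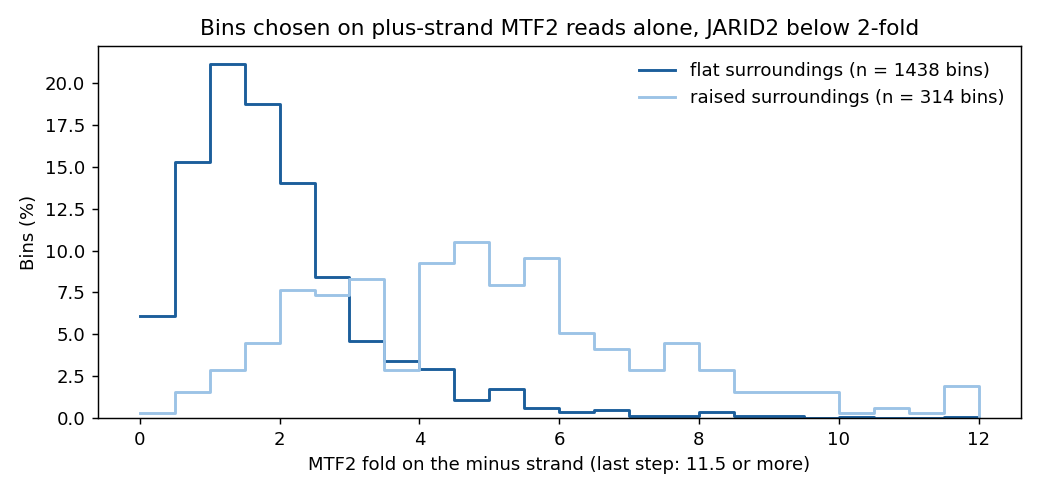
Percent of bins (vertical axis) by MTF2 fold on the minus strand (horizontal axis, with an open last step), for bins chosen by plus-strand MTF2 reads at 5-fold or more with JARID2 below 2-fold. The 1438 bins with flat surroundings centre on 1.75-fold and the 314 with raised surroundings on 4.67-fold. Surroundings were split on reads of both strands.

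The deposited MTF2 score of members was like that of the whole library. The score is a whole number from 0 to 10 whose meaning is not given in the sources used here. In members 44.1% (43.1 to 45.1) of reads had score 0, against 43.4% over all bins, and the mean was 1.32 against 1.41. The share was 45.0% (43.7 to 46.3) in members with raised surroundings and 42.8% (41.3 to 44.4) in solitary ones. Single members ran from 10.5 to 84.2% at score 0. No member read scored 8 or more. Such scores were rare in the whole library, where 408 of 8563684 reads had 8, 33 had 9 and 12 had 10. Their absence therefore says little about members. The share at score 0 was lower in the other classes, at 40.6% (39.9 to 41.2) in intermediate bins and 32.3% (32.0 to 32.6) in shared bins, where the mean score was 1.81. At an MTF2 fold of 5 to 6 the order was the same, with 42.9% (41.5 to 44.3) in members, 37.96% (36.6 to 39.3) in intermediate and 32.3% (31.5 to 33.1) in shared bins. So the scores in members were close to those of the whole library, and those in shared bins were higher. The difference is beyond counting error, in 1 library, and what moves the score was not tested.

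Bins rich in JARID2 were often close to members in raised surroundings. A bin with JARID2 at 5-fold or more lay within 10 kb of 200 of 450 members (44.4%, 39.8 to 49.2), against 19.1% of all bins. The share was 63.4% (57.0 to 69.4) for members with raised surroundings and 22.2% (16.8 to 28.5) for those with flat ones. In intermediate bins it was 82.4% (79.4 to 85.1). Which genes lie near the members was not analysed here.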

How the data were processed

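ChIP-seq of MTF2 and JARID2 was analysed from the aligned reads that the authors deposited, 1 line per read, as genomic intervals. Per the labels' protocols, libraries had 15 PCR cycles. Aligner, filters and genome build: not given in the sources used here. Coordinates are those of the files, counted from 1. The gene table at hand is of another build, so members carry no gene names or sequences. The deposited score column, 0 to 10 in MTF2 and 1000 throughout JARID2, did not enter the rule.

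Repeat reads, alike in chromosome, strand and 5' end, were reduced to 1 with the lowest score. This left 81.0% of 10572939 MTF2 lines and 89.05% of 14051486 JARID2 lines on chromosomes 1 to 19. Reads were moved downstream by 70 bp (MTF2) or 100 bp (JARID2) before counting in 1 kb bins. Intervals are 95% intervals, exact Clopper-Pearson for shares, exact Poisson for folds and order-statistic for medians. Those over bins treat the bins as independent and are too narrow where bins lie in groups. With 1 library per factor no test between factors was made. Python 3.11.15, numpy 2.4.6, pandas 2.3.3 and scipy 1.17.1 were used. The rule was also run on simulated counts, with an even level per chromosome and no grouping or repeat reads. That run cannot speak to the groups and short stacks of reads seen here. Members, classes and lists were chosen with earlier results of these data known. Named bins were the 10 highest MTF2 folds (at most 1 per 100 kb), the 5 longest regions, the 5 groups with most members, the 3 bins with most MTF2 reads and no JARID2 read, and 2 bins on each side of a limit. The split by surroundings, the 200 bp steps, and the further solitary bins and groups were added after their values were seen. Alternatives varied the limits, read handling and bins.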

Additional observations from a re-analysis of the deposited data

Results flagged for a closer look

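Chromosome X lies outside the rule, and 207 of its bins met the same limits, with folds set against its own expected counts of 2.24 MTF2 and 2.10 JARID2 reads. This signal, on a chromosome that the comparisons above did not use, came to 1.33 bins per 1000, against 0.189 on chromosomes 1 to 19. The bins held a median of 13 MTF2 reads, at 5.81-fold MTF2 and 0.951-fold JARID2. Of them 59 (28.5%) had raised surroundings, and 25.1% had another such bin within 10 kb. No JARID2 read was found in 23 (11.1%), against 18.02% of all bins with a read on chromosome X. The part of the lower expected count in the higher density was not tested.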

How the results depend on the processing

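No paired analysis was possible because each factor had 1 library. Over 12 results, 164 values were computed under 12 planned and 2 later-added settings. Of these, 102 stayed within 1.5 times the number reported (counts) or within its 95% interval (shares, medians), and 62 moved. For pairs of reads this interval is too narrow, since a read enters several pairs. For shares and medians of bins it is too narrow as well, since members lie in groups. Reversal of direction was not looked for. Some values could not move. Dropping the limit on lines per kept read changed nothing, since it had removed no bin with JARID2 below 2-fold. The limits for members do not enter the fold of the highest bin. Depth limits the members: a single read moves a bin across a limit. Where values moved the cause was not tested, with exceptions that hold by construction. Other limits change the number of bins, and the limit on reads of 1 strand raises the minus-strand median.

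With MTF2 at 8-fold or more there were 46 members in 40 regions, 2.17% without a JARID2 read, 46.3% of reads at score 0, 56.5% with another member and 63.04% with 5-fold JARID2 within 10 kb. The minus-strand median was 5.22, 86.96% had raised surroundings and 7.90% of pairs in solitary members lay 40 to 59 bp apart, and the chromosome 7 block kept 4 of 22 members. At 4-fold or more there were 1878 members in 1672 regions, with 6.34%, 30.2% and 28.01% for no JARID2 read, another member and 5-fold JARID2 nearby, a median of 1.74, 28.3% raised and 9.88% of pairs. With JARID2 below 1-fold there were 186 members in 174 regions, with 9.14% without a JARID2 read, 96.24% at most 90% on 1 strand, 13.98% and 24.2% for another member and 5-fold JARID2 nearby, a median of 1.75, 31.2% raised, 13.4% of pairs and 13 members in the block. With neighbouring bins held below 2-fold JARID2 there were 256 members in 223 regions, with 43.1% of reads at score 0, 23.4% and 27.3% for another member and 5-fold JARID2 nearby, a median of 1.77, 34.4% raised and 13.1% of pairs.

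Without MTF2 reads of score 0 there were 917 members in 845 regions, with 95.1% at most 90% on 1 strand, 26.4% and 29.99% for another member and 5-fold JARID2 nearby, a median of 1.04 and 32.8% raised. With every line counted, 42.7% of reads had score 0 and the median was 1.69. Without the read shift 14.3% of pairs lay 40 to 59 bp apart. With bins moved by 500 bp, 42.99% of reads had score 0, and the bin holding the start of the chromosome 1 site was at 8.84-fold. With no percentile limit, 55.3% had another member nearby, the median was 2.25, 65.4% were raised and 11.48% of pairs lay 40 to 59 bp apart. With flat surroundings alone there were 207 members in 203 regions, with 7.73% without a JARID2 read, 42.8% of reads at score 0, 95.7% at most 90% on 1 strand, 3.86% and 22.2% for another member and 5-fold JARID2 nearby, a median of 1.75 and 0 members in the block. With at most 90% of reads on 1 strand the median was 2.32. This limit drops chosen bins with few minus-strand reads, so the minus-strand median rises by construction.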
